A study of Rattus norvegicus with 18 samples.

Results

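The miRNA miR-22-3p (rno-miR-22-3p) ranked 2 by abundance among the miRNAs of these rat livers, and with TMM-scaled counts no difference in its level between groups passed the test. It is 1 row of the 401 mature miRNAs in the deposited count table, chosen by name, and it held 257352 counts over all 18 libraries. The study profiled small RNA in rat liver in 3 groups of 6 libraries: obese ZDF rats given colesevelam, obese ZDF rats given vehicle, and lean rats with no agent in their labels. Every library carries the strain label ZDF-Leprfa/Crl, the lean ones included, so that lean and obese are told apart by the phenotype label, and every library is labelled 8 weeks. The ZDF strain has a defect in the leptin receptor, and its obese animals develop diabetes. Colesevelam is a polymer that binds bile acids in the gut and is not absorbed. No label says that the libraries came from separate animals, and some libraries of a group share a number whose meaning is not given, so that p-values reflect the spread between libraries, part of which may be technical. In bulk liver, fewer cells of a type and less RNA per cell cannot be told apart.

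A mature miRNA guides the silencing complex to messenger RNAs, mainly through its seed, bases 2 to 8. miR-22 is made in many tissues, heart and skeletal muscle among them. In mouse liver and in human liver cell lines, miR-22 has been reported to rise when bile acids activate the nuclear receptor FXR, and to lower cyclin A2, a protein that drives the cell cycle. In mice it has also been linked to liver lipid handling. The comparison of the obese groups asks whether a drug that binds bile acids changes liver miRNAs, and the comparison of vehicle with lean asks how the obese liver differs.

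The sequences below show both arms of the miR-22 precursor, with their seeds in capitals, beside the 3 other miRNAs to which the results come back.
miR-22-3p: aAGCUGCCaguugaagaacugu
miR-22-5p: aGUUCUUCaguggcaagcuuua
miR-192-5p: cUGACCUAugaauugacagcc
miR-26a-5p: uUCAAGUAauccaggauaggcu
miR-10a-5p: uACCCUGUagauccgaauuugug
The hairpin has both arms in capitals, the 5p arm at bases 19 to 40 and the 3p arm at bases 57 to 78 of 95.
Mir22 hairpin: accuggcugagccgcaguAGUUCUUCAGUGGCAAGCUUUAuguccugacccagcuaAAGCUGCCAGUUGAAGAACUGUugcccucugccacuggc
These sequences are from RefSeq, build GRCr8, where the hairpin is at chr10:60805331-60805425 on the plus strand, the 3p arm at chr10:60805387-60805408 and the 5p arm at chr10:60805349-60805370. No other gene of that annotation overlaps the hairpin, and the genes next to it are Mir6326 and Tlcd2. The deposited table places miR-22-3p at a single location, chromosome 10, bases 62013698 to 62013719 on the plus strand, and does not state the build. No other row of the table, and no other of the 724 mature rat miRNAs in the RefSeq table, has the seed of miR-22-3p. The closest other row differs from it by 9 edits, so it has no near-identical copy in the table that could take its reads. The 10 most abundant miRNAs had 10 different seeds.

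The libraries held 32936 to 122881 miRNA counts in the colesevelam group, 37910 to 147313 in the vehicle group and 110352 to 881452 in the lean group. Hepatocyte markers fitted the tissue label. All 5 of them had counts, with summed shares of 27.4% to 40.2% of counts in colesevelam, 22.6% to 34.7% in vehicle and 32.3% to 45.2% in lean libraries. By mean share over all libraries, miR-192-5p was the largest part of these sums at 23.1%, with miR-122-5p at 4.49%. Summed leukocyte markers (4 of 4 with counts) held 0.0771% to 0.124% in colesevelam, 0.0940% to 0.182% in vehicle and 0.166% to 0.324% in lean libraries. The 4 bile duct and epithelial markers held 0.0114% to 0.0243% in colesevelam, 0.00762% to 0.0199% in vehicle and 0.0339% to 0.0579% in lean libraries. For the latter list the lean range lay above both obese ranges. Of 3 muscle markers 1 had counts, at up to 0.00279%. The 3 pancreas markers all had counts, at up to 0.169%, and the 4 stellate and stromal markers held 3.21% to 5.23% over all libraries. Depth and some of these marker shares moved with the groups. The part of the marker shares in the results was not tested, and depth is set against the share of miR-22-3p within groups further on.

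miR-22-3p had 3142, 5544, 7930, 4079, 10063 and 3664 counts in the colesevelam libraries. It had 5555, 3862, 5383, 5758, 15359 and 5846 counts in the vehicle libraries, and 9205, 83220, 17541, 51002, 11140 and 9059 in the lean libraries. Totals and counts were both highest in the lean libraries by median, and ranges overlapped, so levels are given below as a share of the library's counts and as CPM, counts scaled to a common library total with TMM factors.

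As a share of all miRNA counts, miR-22-3p made up 9.54%, 9.98%, 9.12%, 10.7%, 8.19% and 5.98% of the colesevelam libraries. The share was 14.1%, 8.13%, 14.2%, 10.4%, 10.4% and 8.17% in the vehicle libraries. It was 8.34%, 9.44%, 8.84%, 11.1%, 7.31% and 5.29% in the lean libraries. The 2 highest shares were those of vehicle libraries 1 and 3, the lowest was that of lean library 6, and the groups overlapped. Means were 8.92% ± 1.67 in colesevelam, 10.9% ± 2.71 in vehicle and 8.39% ± 1.98 in lean libraries (SD, n = 6 each). Colesevelam differed from vehicle by −1.98 percentage points (two-sided exact permutation p = 0.177, adjusted p = 0.429 over 33 such tests). Vehicle differed from lean by 2.52 points (exact permutation p = 0.102, adjusted p = 0.420) and colesevelam from lean by 0.531 points (exact permutation p = 0.621, adjusted p = 0.765).

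miR-22-3p had rank 2 in 14 of the 18 libraries. Its rank was 4 in colesevelam library 6, 3 in vehicle library 6 and in lean library 3, and 5 in lean library 6. Its mean share over all libraries was 9.41%, between the 23.1% of miR-192-5p, a hepatocyte-enriched miRNA, and the 6.33% of miR-378a-3p, which is made from an intron of the coactivator gene Ppargc1b. The next were miR-21-5p at 5.91%, a miRNA raised in many injured tissues, and miR-26a-5p at 5.30%. After them came the hepatocyte miRNAs miR-148a-3p at 4.92% and miR-122-5p at 4.49%, then miR-10a-5p at 4.27%, which lies in a Hox gene cluster, miR-143-3p at 4.02%, which marks smooth muscle and stromal cells, and miR-92a-3p at 3.81%, of the miR-17-92 cluster.

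**Figure D1:**
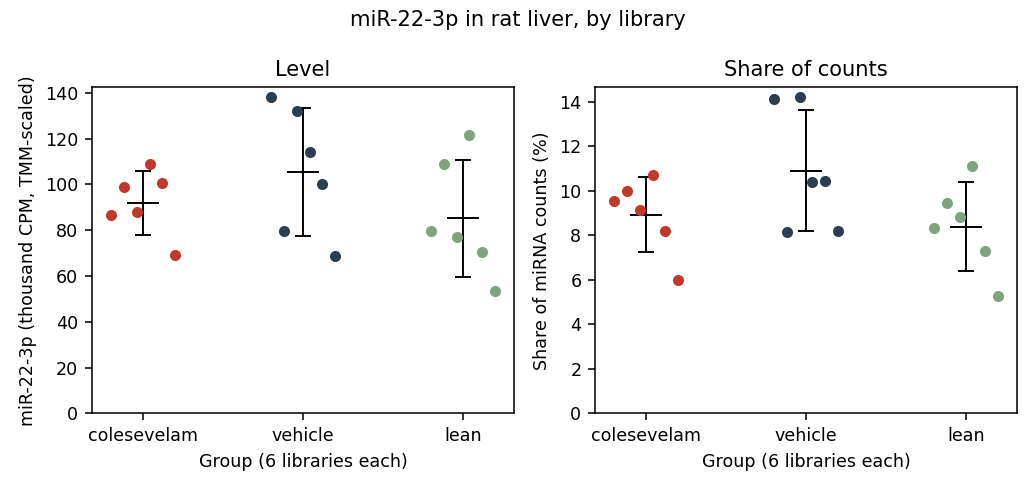
Level of miR-22-3p by library, as TMM-scaled CPM in units of 1000 (left) and as a percentage of miRNA counts (right), in colesevelam, vehicle and lean libraries. Points are libraries and bars are means with SD (n = 6 each). The groups overlap on both scales.

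In CPM the colesevelam libraries ran between 69130 and 108779 (median 93183), the vehicle libraries between 68626 and 138167 (median 107133) and the lean libraries between 53228 and 121508 (median 78222). Means were 91902 ± 13918 CPM in colesevelam, 105468 ± 27891 CPM in vehicle and 85108 ± 25394 CPM in lean libraries (SD, n = 6 each). The SD came to 15.1% of the mean in colesevelam, 26.4% in vehicle and 29.8% in lean libraries. In order of mean level the groups ran vehicle, colesevelam, lean, and no difference between neighbours in that order passed the test.

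In the quasi-likelihood test of edgeR (p-values adjusted by Benjamini-Hochberg over all miRNAs tested), miR-22-3p was not called in any comparison. Colesevelam against vehicle gave a log2 fold change of −0.20 ± 0.22 (SE, adjusted p = 0.693), where 10.7% of the 112 tested miRNAs were called. The 95% interval of that fold change ran from −0.65 to 0.25, which is 0.639-fold to 1.19-fold. Vehicle against lean gave 0.31 ± 0.22 (edgeR adjusted p = 0.491), with an interval from −0.14 to 0.76, or 0.908-fold to 1.69-fold, where 6.25% of tested miRNAs were called. Colesevelam against lean gave 0.11 ± 0.22 (edgeR adjusted p = 0.763), with an interval from −0.34 to 0.56, or 0.792-fold to 1.47-fold, where 21.4% were called. The comparisons share libraries, so they are not independent of each other. The unadjusted p-values from edgeR were 0.368, 0.166 and 0.613 in the same order.

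2 vehicle libraries carried much of the edgeR difference in level between the obese groups. Without vehicle library 3 the log2 fold change of colesevelam against vehicle was −0.03, and without vehicle library 1 it was −0.10. The filter and TMM factors were refitted at each removal. The difference in share, which needs no refit, stayed between −2.54 and −1.33 percentage points with any one library left out. Without lean library 6, vehicle against lean came to 0.20 and colesevelam against lean to 0.01.

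The authors' deposited table gives another picture of the comparisons with lean. It lists miR-22-3p, from the authors' DESeq2 fit, at a log2 fold change of −2.26 for vehicle against lean (adjusted p = 0.000401) and −2.76 for colesevelam against lean (adjusted p = 2.6e-06). For colesevelam against vehicle the authors' deposited table lists −0.50 (adjusted p = 0.620). Almost every miRNA shares that direction: at an adjusted p under 0.05 the authors' deposited table has 177 miRNAs lower and 1 higher in vehicle than in lean, and 178 were lower and 0 higher in colesevelam than in lean. The median log2 fold change in the authors' deposited table was −2.41 for vehicle against lean and −2.88 for colesevelam against lean. The size factors behind these values, recovered from the deposited mean counts, ran from 0.712 to 1.38 over the 18 libraries, while the library totals ran from 32936 to 881452.

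Put into the same edgeR fit, the authors' factors gave miR-22-3p −2.26 for vehicle against lean (edgeR adjusted p = 0.00045) and −2.76 for colesevelam against lean (edgeR adjusted p = 3.8e-05). The median of the 112 tested miRNAs moved with it, to −2.38 and −2.76, against 0.00 and −0.08 with TMM. Relative to that median, miR-22-3p stood at 0.12 in vehicle against lean and −0.00 in colesevelam against lean with the authors' factors, and at 0.30 and 0.19 with TMM. With the authors' factors 44 of the tested miRNAs lay above it in vehicle against lean and 56 in colesevelam against lean. The same counts with TMM were 22 and 45. In colesevelam against vehicle it stood at −0.14 relative to the median with the authors' factors and −0.19 with TMM.

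**Figure D2:**
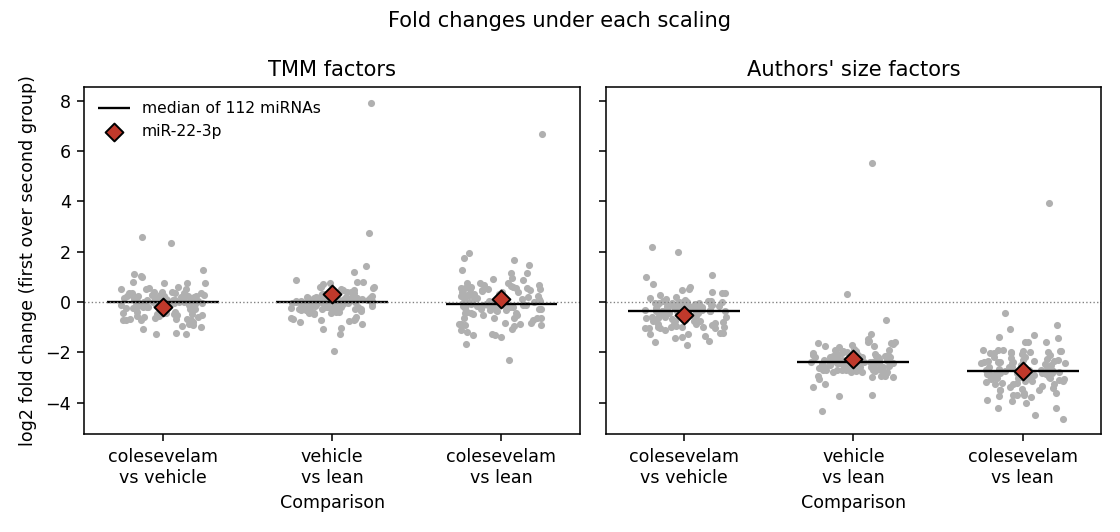
Log2 fold changes of the 112 tested miRNAs in the 3 comparisons, with TMM and with the authors' size factors. Points are miRNAs, the line is their median and the diamond is miR-22-3p; with the authors' factors the median lies at −2.38 in vehicle against lean and −2.76 in colesevelam against lean, and miR-22-3p lies close to it.

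Ratios between miRNAs of one library need no scaling. Counts per row were compared directly, since mature miRNAs differ little in length, but libraries capture some sequences better than others, so that a ratio is read across groups and not as a ratio of molecules. Against the geometric mean of the other 9 most abundant miRNAs, miR-22-3p stood 1.01-fold to 2.03-fold in colesevelam libraries, 1.39-fold to 2.73-fold in vehicle libraries and 1.11-fold to 2.23-fold in lean libraries. The groups overlapped. Mean log2 ratios were 0.65 ± 0.34 in colesevelam, 0.96 ± 0.42 in vehicle and 0.64 ± 0.37 in lean libraries (SD, n = 6 each). Colesevelam differed from vehicle by −0.31 (two-sided exact permutation p = 0.195, adjusted p = 0.429). Vehicle differed from lean by 0.32 (exact permutation p = 0.184, adjusted p = 0.429) and colesevelam from lean by 0.02 (exact permutation p = 0.942, adjusted p = 0.942).

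**Figure D3:**
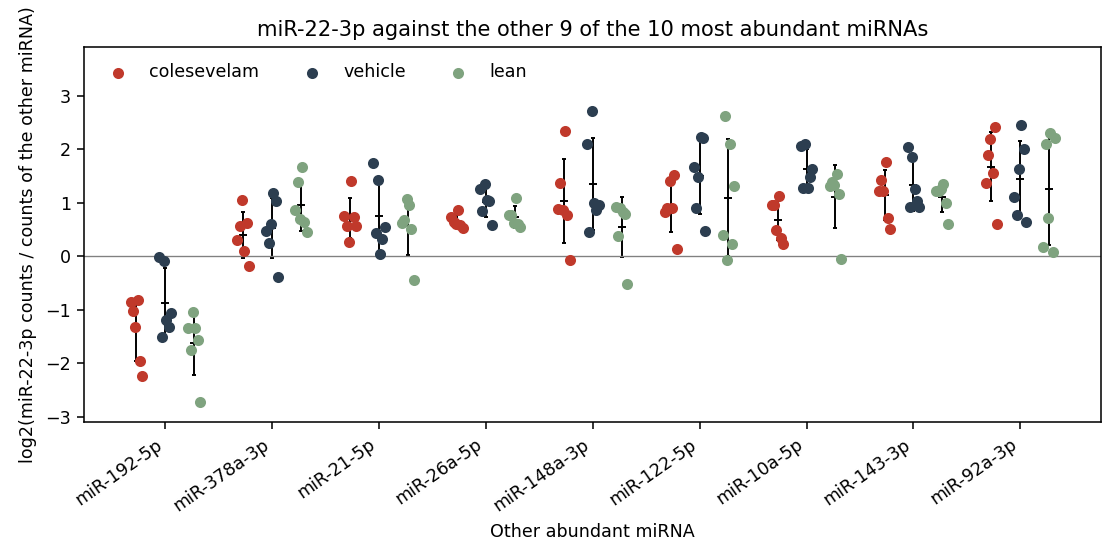
Log2 ratio of miR-22-3p counts to each of the other 9 most abundant miRNAs, by library, in colesevelam, vehicle and lean groups. Points are libraries and bars are means with SD (n = 6 each); the colesevelam and vehicle points are apart for miR-10a-5p, at means of 0.68 and 1.63.

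Of the 33 permutation tests, 2 had an unadjusted p under 0.05 and 0 passed after adjustment. Both were ratios in colesevelam against vehicle. The ratio to miR-10a-5p was 1.17-fold to 2.18-fold in colesevelam libraries and 2.41-fold to 4.26-fold in vehicle libraries, and these ranges did not overlap. It was 0.962-fold to 2.88-fold in lean libraries, which overlapped both. The mean log2 ratio was 0.68 ± 0.38 in colesevelam and 1.63 ± 0.37 in vehicle libraries (SD, n = 6 each), a difference of −0.95 (two-sided exact permutation p = 0.00216, the smallest that 6 against 6 can give, adjusted p = 0.0714). The difference stayed between −1.04 and −0.86 with any one library left out.

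With TMM, the other member of that ratio carried most of it. miR-10a-5p averaged 57683 ± 12448 CPM in colesevelam and 33824 ± 8160 CPM in vehicle libraries (SD, n = 6 each), and by edgeR it rose by 0.77 ± 0.20 on the log2 scale (adjusted p = 0.0167), against the −0.20 of miR-22-3p. In lean libraries it averaged 38886 ± 9564 CPM. This split of the ratio depends on the scaling. With the authors' size factors in the edgeR fit, colesevelam against vehicle gave 0.47 for miR-10a-5p and −0.50 for miR-22-3p.

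The second ratio was that to miR-26a-5p, a miRNA present in most tissues and linked in mouse liver to growth arrest. It was 1.44-fold to 1.81-fold in colesevelam, 1.50-fold to 2.53-fold in vehicle and 1.45-fold to 2.12-fold in lean libraries. The mean log2 ratio was 0.66 ± 0.12 in colesevelam and 1.01 ± 0.28 in vehicle libraries (SD, n = 6 each), a difference of −0.36 (exact permutation p = 0.0216, adjusted p = 0.357). The ranges overlapped, and with libraries that share a label number summed the difference was −0.34 (exact permutation p = 0.0635).

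Among the other ratios, that to miR-192-5p had a geometric mean of 0.386 in colesevelam, 0.547 in vehicle and 0.323 in lean libraries, and its vehicle against lean difference was 0.76 on the log2 scale (exact permutation p = 0.0541, adjusted p = 0.398). The ratio to miR-378a-3p had a geometric mean of 1.32 in colesevelam, 1.43 in vehicle and 1.93 in lean libraries, with a colesevelam against lean difference of −0.55 (exact permutation p = 0.0693, adjusted p = 0.398). The ratio to miR-122-5p, the most liver-specific of these miRNAs, had a geometric mean of 1.92 in colesevelam, 2.81 in vehicle and 2.13 in lean libraries. Ratios to miR-21-5p were 1.64, 1.68 and 1.48 in colesevelam, vehicle and lean libraries, and those to miR-143-3p were 2.21, 2.52 and 2.15 in the same order of groups.

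Within groups, miR-22-3p was among the steadier of the 112 tested miRNAs, but in the middle of the most abundant ones. The SD of its log2 CPM about the group means was 0.37, the 29th smallest of 112, against a median of 0.51. Next to it in that order were miR-99a-5p (0.36), miR-30a-3p (0.37), miR-183-5p (0.37) and miR-122-3p (0.37). Of the other abundant miRNAs, miR-26a-5p had the smallest spread of all 112 at 0.21. miR-143-3p (0.28), miR-10a-5p (0.33) and miR-378a-3p (0.36) also had smaller spreads than miR-22-3p. Larger spreads were those of miR-21-5p (0.42), miR-192-5p (0.48), miR-148a-3p (0.57), miR-122-5p (0.64) and miR-92a-3p (0.74).

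The miRNA whose level over the 18 libraries was most like that of miR-22-3p was miR-26a-5p, with Pearson's r = 0.748 and Spearman's rho = 0.709 on log2 CPM, and r = 0.881 once each group was centred on its mean. In 16 of 18 libraries both lay on the same side of their group means. miR-103-3p (r = 0.676, rho = 0.538), let-7i-5p (r = 0.605, rho = 0.486), let-7g-5p (r = 0.593, rho = 0.463) and miR-107-3p (r = 0.553, rho = 0.531) came next. The lowest values were those of miR-365-3p (r = −0.673, rho = −0.666), miR-193b-3p (r = −0.490, rho = −0.558) and miR-423-5p (r = −0.435, rho = −0.439). These are descriptions: the miRNAs were picked as the extremes of 111 pairs, and levels in one library share its depth and scaling.

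**Figure D4:**
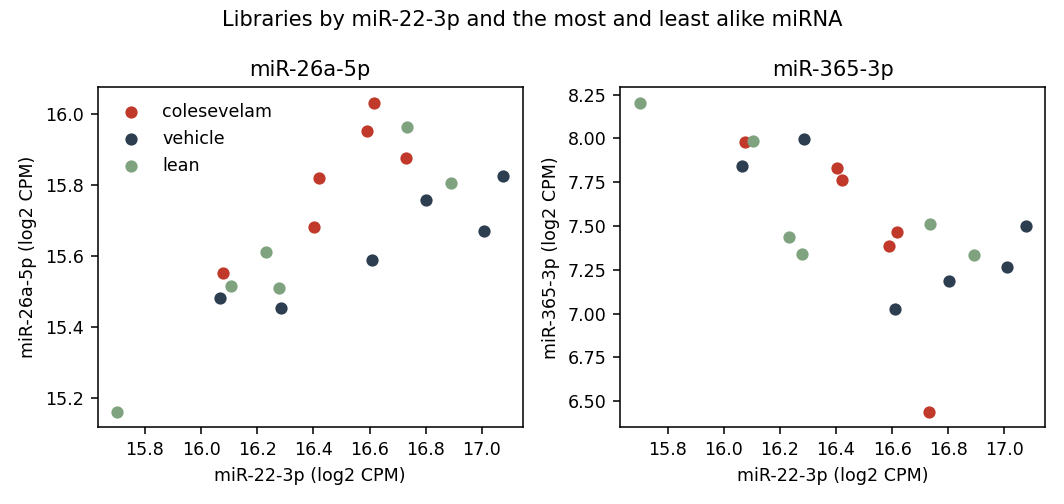
Log2 CPM of miR-22-3p (horizontal) against miR-26a-5p (left) and miR-365-3p (right) in the 18 libraries, coloured by group. The points rise together for miR-26a-5p (r = 0.748) and run opposite for miR-365-3p (r = −0.673) in all 3 groups, with lean library 6 at the low end of miR-22-3p.

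The share of miR-22-3p was set against library depth within each group. Pearson's r with the log2 total was −0.431 in colesevelam (permutation p = 0.389), −0.449 in vehicle (permutation p = 0.389) and 0.597 in lean libraries (permutation p = 0.228). Spearman's rho was −0.657 in colesevelam (permutation p = 0.175), −0.486 in vehicle (permutation p = 0.356) and 0.714 in lean libraries (permutation p = 0.136). Without the 2 libraries farthest from the median depth, r was −0.417, −0.775 and −0.148 in that order of groups. Over all libraries of a group, Pearson's r with depth had an adjusted permutation p of 0.778 in each group, over 6 relations. The other 3 relations set the share against each library's slope of log2 counts on GC content. There r was 0.110 in colesevelam, 0.147 in vehicle and −0.155 in lean libraries (adjusted permutation p = 0.872 each). Without the 2 libraries farthest from the median slope, r was −0.007, −0.330 and −0.732 in that order. The GC content of miR-22-3p itself, 45.5%, was the median of the tested miRNAs.

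The 5p arm of the precursor was close to absent. miR-22-5p had 1, 0, 1, 0, 8 and 0 counts in colesevelam libraries, 0, 4, 0, 1, 11 and 3 in vehicle libraries, and 3, 49, 8, 20, 7 and 22 in lean libraries. It did not pass the filter on low counts and was not tested. Summed over libraries it made up 0.0290% of both arms in colesevelam (exact 95% binomial interval 0.0139% to 0.0534%), 0.0455% in vehicle (0.0274% to 0.0710%) and 0.0601% in lean (0.0494% to 0.0725%). These intervals cover counting error alone. Lean library 6 stood apart, with a share of 0.242% (0.152% to 0.367%). Without it the lean share was 0.0505% (0.0405% to 0.0623%). The intervals of all 3 groups overlapped with that library and without it. The 3p arm supplied almost all counts of the precursor in every library.

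**Figure D5:**
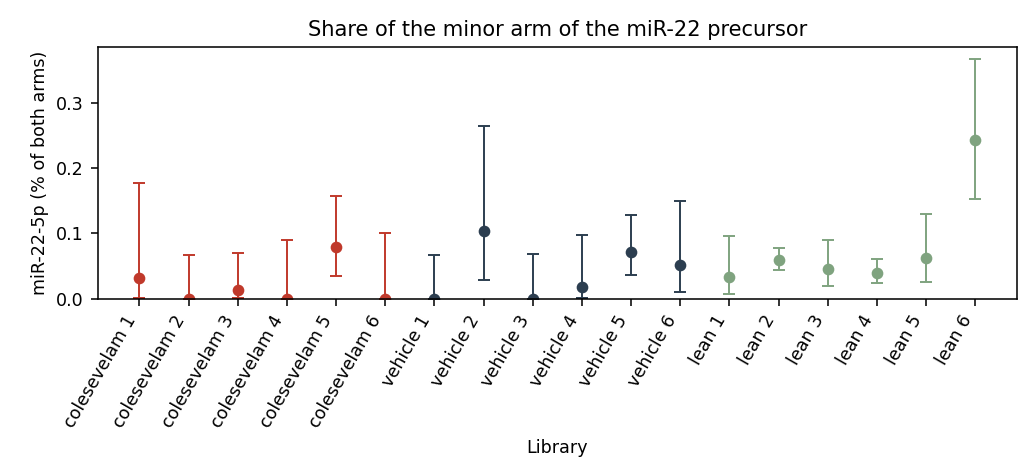
Counts of miR-22-5p as a percentage of both arms of the precursor, by library. Points are libraries and bars are exact 95% binomial intervals; lean library 6 lies at 0.242% and every other library at or near 0.1% or below.

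miR-22 was set beside other miRNAs that have been linked to bile acids or FXR. Of 12 such names, 10 had a row and 5 were tested: miR-22-3p, miR-122-5p, miR-192-5p, miR-194-5p and miR-29a-3p. By edgeR none of the 5 was called or had an unadjusted p under 0.05 in any of the 3 comparisons, and the same count of 0, adjusted and unadjusted, came from DESeq2 and limma-voom. Over all 112 tested miRNAs the shares called were 10.7% in colesevelam against vehicle, 6.25% in vehicle against lean and 21.4% in colesevelam against lean, so that a count of 0 of 5 says little about these 5. The median log2 fold change of the 5 was −0.02 in colesevelam against vehicle, −0.01 in vehicle against lean and 0.11 in colesevelam against lean, where all 112 tested miRNAs had medians of −0.01, 0.00 and −0.08. miR-122-5p, which supports cholesterol and lipid synthesis in mouse liver, stood at 0.35 ± 0.32 in colesevelam against vehicle and −0.24 ± 0.32 in vehicle against lean (SE). With each library's slope of log2 counts on GC content as a covariate, miR-122-5p passed in colesevelam against vehicle, at 0.73 (edgeR adjusted p = 0.0120). With the authors' size factors all 5 were called lower in both comparisons with lean, as nearly all tested miRNAs were. miR-192-5p stood at 0.35 ± 0.27 and −0.46 ± 0.27 in the same comparisons, and miR-194-5p, made from a shared precursor transcript with a miR-192 gene, at −0.02 ± 0.19 and −0.01 ± 0.19. miR-29a-3p, which acts on collagen messages, stood at −0.02 ± 0.17 and 0.27 ± 0.17. Of the rows too low to test, miR-34a-5p had 61 counts over all libraries, miR-33-5p 36, miR-421-3p 52, miR-199a-5p 156 and miR-144-3p 194.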

How the data were processed

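Per the labels' protocols, rat livers were flash frozen, RNA was taken with a Norgen total RNA kit, and an Illumina TruSeq RNA kit was used for the libraries. The values for mature miRNAs that the authors deposited are estimated counts, not scaled between libraries; 297 of 7218 values were not whole, and all were rounded for testing. The submitters' processing notes name Bowtie 1.1.2 and DESeq2 1.18.1. No genome build, annotation or counting tool was given in the sources used here. The deposited table also holds the authors' log2 fold changes and p-values, raw and adjusted, per the file headers; it also gives a score per comparison, the mean over its libraries (of counts divided by the authors' size factors), from which those factors were recovered.

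Groups came from the labels. miR-22-3p was tested with edgeR 4.0.16 (R 4.3.3; TMM, robust quasi-likelihood F test) in 1 fit over 18 libraries, after filterByExpr (minimum count 10, minimum total 15) left 112 miRNAs with 99.5% of counts. p-values were Benjamini-Hochberg adjusted over all 112, threshold 0.05. Shares and ratios were tested by two-sided exact permutation tests (scipy 1.17.1), adjusted over 33. The edgeR test and the exact permutation test were tried on simulated data, and the other steps were not. Log2 CPM used a prior count of 1. Alternatives were other scalings, filters, tools (DESeq2 1.42.0, limma-voom 3.58.1), a replicate block, and leaving libraries out. Named miRNAs were the 10 most abundant, those most and least alike miR-22-3p, its neighbours by spread, and the tested bile acid-linked miRNAs. miR-22-3p and all lists were chosen with earlier results of these data known. Libraries held 32936 to 881452 counts. The binomial intervals of the 5p arm cover counting error only, while those of fold changes come from the edgeR fit and cover the spread between libraries.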

Additional observations from a re-analysis of the deposited data

Results flagged for a closer look

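Over the 3 groups, 39 sets of 6 values were examined. In 3 of these sets a library stood far from the rest of its group, each time lean library 6. Chance would set apart about 1 independent set in 20. The sets all use miR-22-3p counts and are not independent, so that rate cannot be set against them. In lean library 6 the log2 ratio of miR-22-3p to miR-10a-5p was −0.056, against 1.15 to 1.53 in the other lean libraries. Its log2 ratio of miR-22-3p to miR-21-5p was −0.45, against 0.51 to 1.07, a gap of 0.627 of the range and so barely flagged. It had 2.43 counts of miR-22-5p per 1000 of miR-22-3p, against 0.326 to 0.628. Over all 6 lean libraries the log2 ratio of miR-22-3p to miR-10a-5p differed by −0.43 in colesevelam against lean (two-sided exact permutation p = 0.149, adjusted p = 0.429). Without lean library 6 the difference was −0.66, given with no test since that library was singled out by this ratio.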

How the results depend on the processing

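With the authors' size factors miR-22-3p turned to −2.26 in vehicle against lean and −2.76 in colesevelam against lean, as did miR-122-5p (−2.33, colesevelam against lean) and miR-29a-3p (−2.09 in vehicle and −2.48 in colesevelam against lean); the median of all tested miRNAs moved as far. Colesevelam against lean also turned to −0.025 without miR-192-5p in the table and, for the ratio to the other 9, to −0.11 when libraries sharing a label number were summed. With single libraries left out, the level ran from −0.22 to −0.03 (colesevelam against vehicle), 0.15 to 0.42 (vehicle against lean) and 0.01 to 0.24 (colesevelam against lean); the share from −2.54 to −1.33, 1.86 to 3.07 and −0.0894 (without lean library 6) to 1.12 points; the ratio from −0.41 to −0.18, 0.23 to 0.43 and −0.082 (without lean library 6) to 0.14. For miR-22-3p's level, its share and its ratio to the other 9, no call was gained or lost outside the authors' factors. The tested bile acid-linked miRNAs other than miR-22-3p gained miR-122-5p in colesevelam against vehicle with the GC slope (0.73, edgeR adjusted p = 0.0120). Over 378 alternatives of the single ratios, 15 brought an unadjusted p under 0.05 that the ratio did not have before, and 1, summing label numbers for miR-26a-5p, lost it. The causes were not tested.

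Replicate numbers did not pair the libraries (correlations −0.587 to 0.550; own number best in 9 of 36 cases). With the replicate block miR-22-3p stood at −0.18, 0.33 and 0.14, and 8, 6 and 20 miRNAs were called, against 12, 7 and 24 without it. Colesevelam against vehicle gave 2 calls with the authors' factors, 24 with each library's slope of log2 counts on GC content as a covariate, 7 with label numbers summed, 7 with no filter, 6 with upper-quartile factors (6 higher, 0 lower, against 8 and 4) and 7 without vehicle library 6. Vehicle against lean gave 110 and 16, and colesevelam against lean 109 and 43, with the authors' factors and that slope; with the authors' factors 2 were higher and 0 lower in colesevelam against vehicle, 1 and 109 in vehicle against lean (4 and 3 with TMM) and 1 and 108 in colesevelam against lean (13 and 11 with TMM). Scaling by library totals gave 7 higher and 7 lower in colesevelam against vehicle and 12 and 18 in colesevelam against lean. miR-22-5p was too low for a test of the ratio of the arms, so the alternatives of that ratio were not run.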
